A study of Mus musculus with 9 samples.

Results

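Immediate early genes are the genes that cells transcribe first after a growth signal or a stress, before any new protein is made. The 10 taken here, out of 49585 rows of the count table, are Fos, Fosb, Jun, Junb, Jund, Egr1, Atf3, Dusp1, Ier2 and Zfp36, found by their Ensembl identifiers. All 10 were in the table and all 10 passed the filter on low counts, which kept 19606 genes. The tumours were breast adenocarcinomas that arose spontaneously in mice and were treated with adeno-associated virus (AAV), a gene-carrying vector, on days 0, 3 and 8. Tumours were taken when the animals met euthanasia criteria, and neither their age nor the time since treatment is stated in the labels. One group of 6 tumours had received the vector labelled AAV-delta-mut-p53, which the series describes as mutant p53 deleted, and the other group of 3 tumours AAV-Control, whose cargo the labels do not describe. Animals of both groups carried K14-Cre, a recombinase driven from the keratin 14 promoter of basal epithelium. Both also carried Trp53wm-R172H/fl and 1 copy of a Cre-dependent Cas9 gene with EGFP at Rosa26, so Cas9 and the R172H allele were present in the controls too. The labels do not say what wm stands for. AAV-delta-mut-p53 4 and 5 carry the same number in their titles, followed by T1 and T2, and may be 2 tumours of 1 animal. Whether the other tumours came from separate animals is not stated, so p-values measure the spread between these samples.

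FOS, FOSB, JUN, JUNB and JUND are the basic leucine zipper proteins that pair up to form AP-1, a transcription factor, and ATF3 is a related zipper protein induced by stress. Mitogen-activated protein kinases (MAPK) switch these genes on through serum response factor with its ternary complex partners and through cyclic AMP response element (CRE) binding proteins. DUSP1 and ZFP36 act as brakes, DUSP1 by removing phosphate from MAPK and ZFP36 (tristetraprolin, TTP) by speeding the decay of mRNAs with AU-rich elements. Transcripts of this class are short-lived, and they are also known to rise when tissue is cut, warmed or dissociated. The labels say only that tissue was flash-frozen and do not give the time between removal and freezing.

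Each of the 10 genes had a higher mean in AAV-delta-mut-p53 tumours than in AAV-Control tumours, and none passed the test over all genes. The log2 fold changes (AAV-delta-mut-p53 over AAV-Control) ran from 0.37 for Zfp36 to 1.74 for Fosb, with a median of 1.26, against a median of 0.09 over all 19606 genes tested. A fold change above 0 was obtained for 55.6% of all genes tested and one above 1 for 13.6%, against 10 and 6 of the 10 members. The members were chosen with earlier results of these data known and varied together in part, so they are not 10 independent comparisons. With edgeR's quasi-likelihood test, 0 of the 10 members and 0 genes in all (0%) passed a false discovery rate (FDR) of 0.05, and the lowest FDR among members was 0.677. At an unadjusted p under 0.05, Atf3 and Dusp1 were higher, 2 of 10 members, against 3.82% of all genes tested, and no member was lower, against 3.26% (7.07% of all genes in either direction). DESeq2 called 104 genes and 0 of the 10 members. At an unadjusted p under 0.05 it had 5 members, all higher, against 6.42% of all genes higher (9.8% in either direction). For none of the members did all 6 tumours of 1 group stand clear of all 3 of the other, a separation seen in 3.06% of all genes tested. Levels are given as CPM, counts per 1000000 reads, scaled by TMM, edgeR's correction for library composition.

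The libraries held 18581545 to 24567423 counts in AAV-delta-mut-p53 tumours and 26280250 to 30953250 in AAV-Control tumours, so every control was the deeper. Counts of single members ran from 13 reads, for Fosb, to 4005 reads, for Jun. The targeted gene Trp53 had a lowest, median and highest level of 13.1, 38.4 and 41.5 CPM in AAV-delta-mut-p53 tumours, against 39.3, 42.3 and 48.6 CPM in AAV-Control tumours (FDR = 0.78 by edgeR). AAV-delta-mut-p53 2 stood apart. Its 12 skeletal muscle markers summed to 43979 CPM, against 47.4 to 449 CPM in the other 8 tumours, and its 13 epithelial markers, Epcam and keratins among them, summed to 302 CPM, against 1668 to 5671 CPM. Its 8 adipocyte markers summed to 1238 CPM, against 32.1 to 191 CPM in the other 8 tumours. Its 8 fibroblast markers summed to 16760.1 CPM, against 797 to 7308 CPM. Epithelial markers were present in every tumour. In whole tumours, fewer cells of a type and less RNA per cell cannot be told apart.

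Fos, on chromosome 12 from 85473890 to 85477273 (ENSMUSG00000021250.13, GRCm38), encodes the FOS protein, which binds DNA as a pair with a JUN protein. It had a lowest, median and highest level of 4.82, 19.4 and 93.3 CPM in the 6 AAV-delta-mut-p53 tumours, against 22.1, 4.44 and 5.07 CPM in AAV-Control 1, 2 and 3. AAV-delta-mut-p53 6 held the highest level and lay far above the rest, while AAV-Control 1 lay within the range of the AAV-delta-mut-p53 group. Fos had a log2 fold change of 1.43 (SE 0.92, 95% confidence interval -0.61 to 3.47, FDR = 0.703 by edgeR). It was 0.55 once AAV-delta-mut-p53 6 was left out, and 2.57 once AAV-Control 1 was left out. Fosb, the close relative of Fos, on chromosome 7 from 19302696 to 19310051 (ENSMUSG00000003545.3), was the scarcest member. Fosb ran over 0.726, 1.7 and 9.28 CPM (lowest, median and highest) in AAV-delta-mut-p53 tumours, against 1.19, 0.734 and 0.634 CPM in AAV-Control 1, 2 and 3. AAV-delta-mut-p53 3 held the 9.28 CPM, and AAV-delta-mut-p53 4 and 5 were at the control level. Fosb had a log2 fold change of 1.74 (SE 0.89, FDR = 0.677 by edgeR) and 0.89 without AAV-delta-mut-p53 3.

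The stretch around the annotated start is shown for Fos and Jun, which form the classical AP-1 pair, and for Atf3 and Dusp1, which had the smallest p. Each line gives 250 bases before and 50 bases from the start, 5′ to 3′ along the gene, from RefSeq on GRCm38.p6. Capitals mark TGACGT or its reverse complement ACGTCA, which is the core of the CRE (TGACGTCA), the variant TGACATCA in Jun, and TATAAA in Fos.
Fos promoter (chr12:85473640-85473939, plus strand): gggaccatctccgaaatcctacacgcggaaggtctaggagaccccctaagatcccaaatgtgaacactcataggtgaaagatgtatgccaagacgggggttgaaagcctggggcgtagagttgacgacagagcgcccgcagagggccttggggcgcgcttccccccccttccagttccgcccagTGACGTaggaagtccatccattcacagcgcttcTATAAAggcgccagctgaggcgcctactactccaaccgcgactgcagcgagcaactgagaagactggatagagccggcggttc
Jun promoter (chr4:95052173-95052472, minus strand): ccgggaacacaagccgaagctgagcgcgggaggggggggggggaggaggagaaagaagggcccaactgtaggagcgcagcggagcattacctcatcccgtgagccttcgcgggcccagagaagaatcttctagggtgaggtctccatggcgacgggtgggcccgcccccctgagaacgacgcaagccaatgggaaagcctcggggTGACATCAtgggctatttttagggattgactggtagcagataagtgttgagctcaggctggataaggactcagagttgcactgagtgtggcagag
Atf3 promoter (chr1:191183284-191183583, minus strand): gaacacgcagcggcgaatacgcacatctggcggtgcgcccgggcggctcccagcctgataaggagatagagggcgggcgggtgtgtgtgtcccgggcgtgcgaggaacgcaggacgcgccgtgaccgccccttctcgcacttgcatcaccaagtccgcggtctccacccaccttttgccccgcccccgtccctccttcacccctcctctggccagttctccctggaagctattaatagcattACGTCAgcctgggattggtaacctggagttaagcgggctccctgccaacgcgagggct
Dusp1 promoter (chr17:26508423-26508722, minus strand): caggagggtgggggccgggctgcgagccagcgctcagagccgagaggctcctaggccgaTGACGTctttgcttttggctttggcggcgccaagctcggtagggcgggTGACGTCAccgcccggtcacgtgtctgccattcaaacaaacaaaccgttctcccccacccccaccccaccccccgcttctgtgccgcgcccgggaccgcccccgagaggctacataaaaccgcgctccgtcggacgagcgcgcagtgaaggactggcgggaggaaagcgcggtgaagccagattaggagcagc
RefSeq promoters were at hand for 8 of the 10 members, and Egr1 and Ier2 were not matched. The stretch taken for Jund ends at 70697788, before the GENCODE start of the gene at 70698949, so it may not be the promoter of the transcript counted. On both strands, TGACGT was found in 3 of these 8, Fos, Atf3 and Dusp1, and in 7.55% of 32536 other promoters of the same length. In Fos it began at position -66 relative to the start, with TATAAA at -33, in Atf3 at -8 as ACGTCA, and in Dusp1 at -191 and again inside the longer match. The full TGACGTCA, which contains TGACGT, was in Dusp1 alone of the 8, at -143, and in 1.8% of the others. TGACATCA was in Jun, at -45, and in 3.37% of the others. TGANTCA, the only form searched under the name of AP-1, was in 0 of 8 and in 7.79%, which does not exclude AP-1 sites of another form. A CArG box, the sequence bound by serum response factor, was in Zfp36 at -58 and in 1.64% of the others. The search reached only 250 bases before the start, so it does not exclude CArG boxes farther upstream in the other members. The EGR sequence GCGNGGGCG was in Fosb and Zfp36 and in 5.6% of the others. TATAAA was in Fos and Junb and in 13.6% of the others. These are matches of letters in 300 bases and not measured binding.

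**Figure D1:**
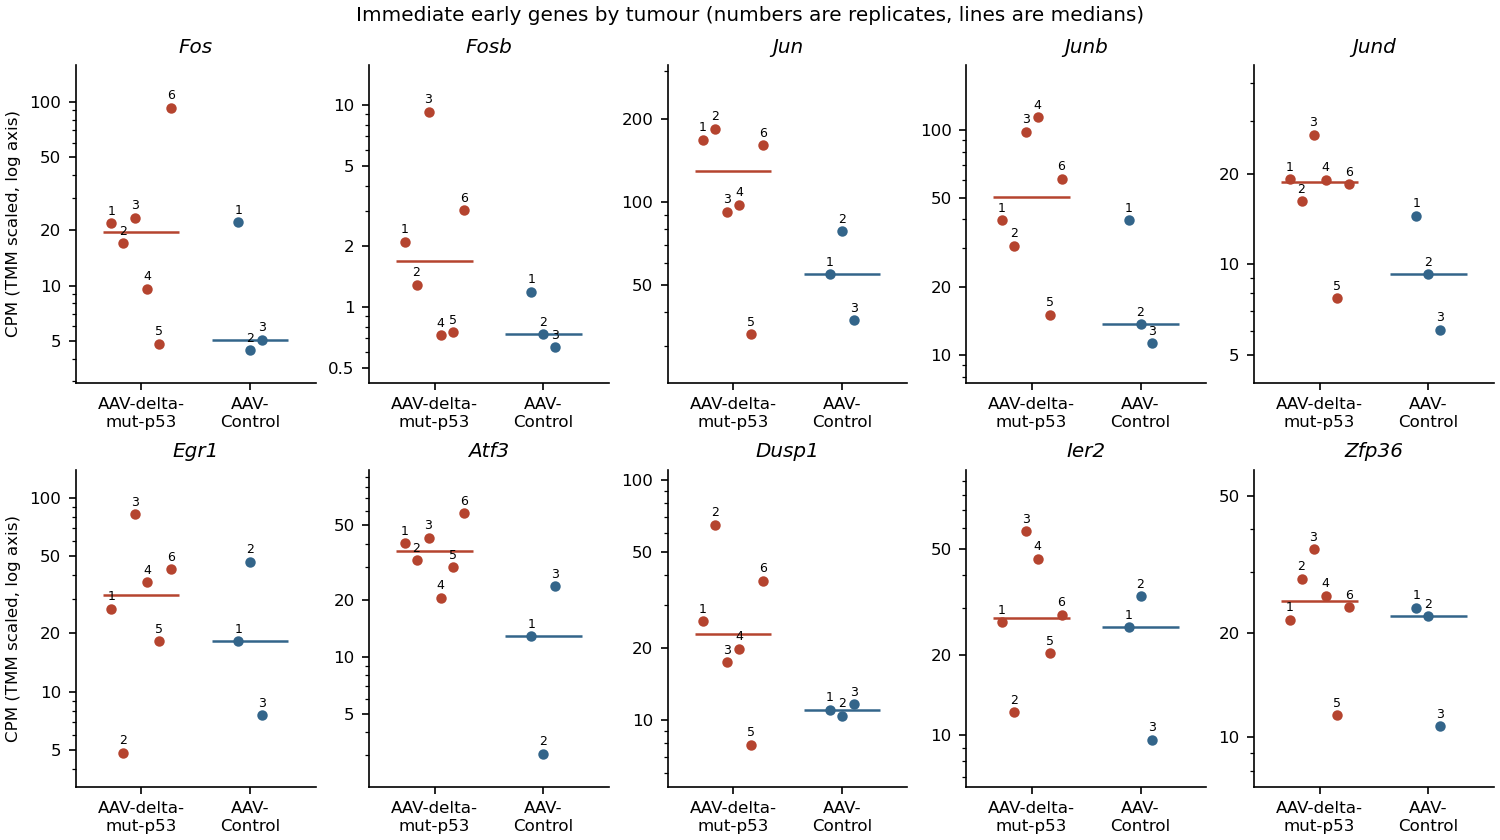
CPM of each gene in every tumour on a log axis, AAV-delta-mut-p53 left and AAV-Control right, with the replicate number above each point and a line at the group median. The groups overlap for each of the 10 genes, and AAV-delta-mut-p53 5 lies at or near the foot of its group for most of them.

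The 3 Jun genes had the same direction. Jun, on chromosome 4 from 95049034 to 95052222 (ENSMUSG00000052684.4), ran over 33.2, 129.6 and 185 CPM (lowest, median and highest) in AAV-delta-mut-p53 tumours, against 54.9, 78.4 and 37.3 CPM in AAV-Control 1, 2 and 3. Of the 6 tumours, 5 lay above every control and AAV-delta-mut-p53 5 lay below every control. Jun had a log2 fold change of 1.11 (SE 0.51, 95% confidence interval -0.01 to 2.24, FDR = 0.677 by edgeR). Junb, which encodes a JUN partner that can restrain it, on chromosome 8 from 84974484 to 84978718 (ENSMUSG00000052837.6), ran over 15.1, 50.1 and 114 CPM in AAV-delta-mut-p53 tumours, against 39.6, 13.7 and 11.3 CPM in AAV-Control 1, 2 and 3. AAV-delta-mut-p53 3 and 4 were the highest, at 98.1 and 114 CPM, and AAV-Control 1 was as high as number 1 of the AAV-delta-mut-p53 group. Junb had a log2 fold change of 1.47 (SE 0.67, FDR = 0.677 by edgeR), and 2.25 without AAV-Control 1. Jund, the family member that most cells hold at rest, on chromosome 8 from 70698949 to 70700616 (ENSMUSG00000071076.6), ran over 7.7, 18.8 and 27 CPM in AAV-delta-mut-p53 tumours, against 14.5, 9.27 and 6.06 CPM in AAV-Control 1, 2 and 3. Here too 5 of 6 tumours lay above every control and AAV-delta-mut-p53 5 did not. Jund had a log2 fold change of 0.85 (SE 0.44, FDR = 0.677 by edgeR).

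Atf3, on chromosome 1 from 191170296 to 191218039 (ENSMUSG00000026628.13), encodes a stress-induced factor that joins JUN proteins or acts alone as a repressor. It ran over 20.7, 36.4 and 58.3 CPM in AAV-delta-mut-p53 tumours, against 12.9, 3.07 and 23.8 CPM in AAV-Control 1, 2 and 3. Of the 6 tumours, 5 lay above every control, and AAV-delta-mut-p53 4, at 20.7 CPM, lay just below AAV-Control 3. AAV-Control 2 was far below the other controls. The log2 fold change was 1.5 (SE 0.58, 95% confidence interval 0.22 to 2.78), with an unadjusted p of 0.0254 and FDR = 0.677 by edgeR. Leaving out AAV-Control 2 gave 1.04, and leaving out AAV-Control 3 gave 2.22.

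The zinc finger factor gene Egr1 (ENSMUSG00000038418.7, chromosome 18 from 34859823 to 34864984) and Ier2 (ENSMUSG00000053560.4, chromosome 8 from 84661331 to 84662852), whose product is a nuclear protein with a less settled function, had smaller fold changes. Egr1 ran over 4.85, 31.7 and 82.5 CPM in AAV-delta-mut-p53 tumours, against 18.3, 46.9 and 7.57 CPM in AAV-Control 1, 2 and 3. Its lowest value was in AAV-delta-mut-p53 2 and its highest in AAV-delta-mut-p53 3, so the controls lay inside the range of the AAV-delta-mut-p53 group. Egr1 had a log2 fold change of 0.54 (SE 0.77, FDR = 0.867 by edgeR), which was 0.09 without AAV-delta-mut-p53 3 and 1.45 without AAV-Control 2. Ier2 ran over 12.2, 27.5 and 58.5 CPM in AAV-delta-mut-p53 tumours, against 25.5, 33.3 and 9.63 CPM in AAV-Control 1, 2 and 3. Its extremes among AAV-delta-mut-p53 tumours were the same as those of Egr1, with number 2 lowest and number 3 highest. For Ier2 the log2 fold change was 0.49 (SE 0.53, FDR = 0.822 by edgeR), and 0.12 without AAV-Control 3.

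Of the 2 brakes, Dusp1 had the larger fold change and Zfp36 the smallest of all members. Dusp1, on chromosome 17 from 26505590 to 26562128 (ENSMUSG00000024190.6), ran over 7.88, 22.8 and 65 CPM in AAV-delta-mut-p53 tumours, against 11, 10.4 and 11.6 CPM in AAV-Control 1, 2 and 3. The 3 controls were nearly alike, 5 of 6 AAV-delta-mut-p53 tumours lay above them and AAV-delta-mut-p53 5 lay below them. Dusp1 had a log2 fold change of 1.4 (SE 0.58, 95% confidence interval 0.11 to 2.69), with an unadjusted p of 0.0366 and FDR = 0.677 by edgeR. The 65 CPM came from the muscle-rich AAV-delta-mut-p53 2. A fit that left it out gave 0.99 (unadjusted p = 0.0588 by edgeR). The other 5 AAV-delta-mut-p53 tumours averaged 21.8 ± 11.1 CPM (SD, n = 5), and AAV-Control tumours 11 ± 0.617 CPM (SD, n = 3). Zfp36, on chromosome 7 from 28376784 to 28380253 (ENSMUSG00000044786.6), ran over 11.6, 24.7 and 35 CPM in AAV-delta-mut-p53 tumours, against 23.7, 22.4 and 10.8 CPM in AAV-Control 1, 2 and 3. Its lowest values were alike, in AAV-delta-mut-p53 5 and AAV-Control 3, and the groups overlapped over most of their range. Zfp36 had a log2 fold change of 0.37 (SE 0.4, 95% confidence interval -0.52 to 1.25, FDR = 0.821 by edgeR).

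**Figure D2:**
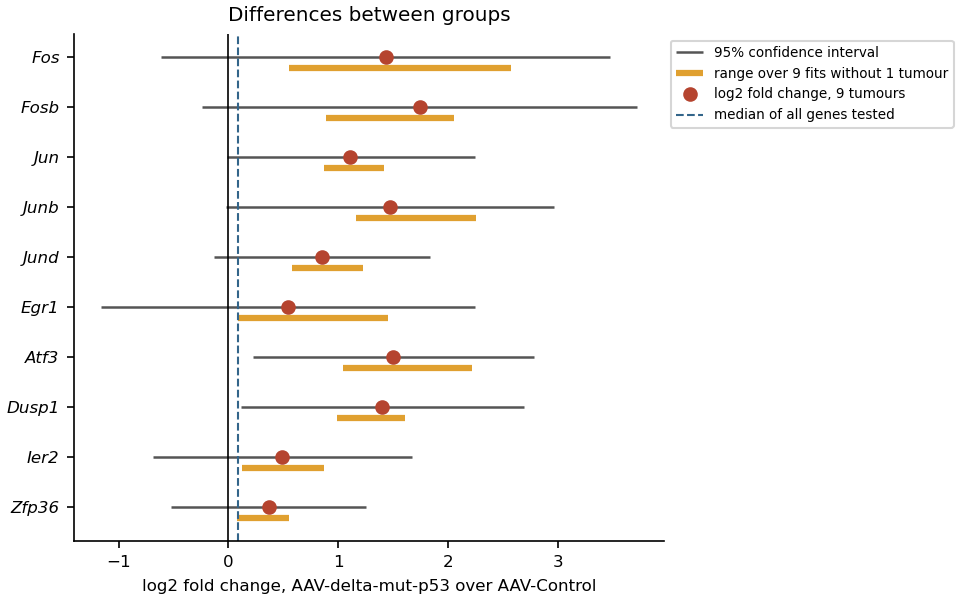
Log2 fold change of each gene (AAV-delta-mut-p53 over AAV-Control) with its 95% confidence interval from edgeR, and below it the range over the 9 fits that leave out 1 tumour each. All 10 values lie right of 0 in each of these fits, 8 of the 10 intervals reach 0 or below, and the dashed line is the median of all genes tested.

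Levels were compared between genes only per kilobase of annotated exon. Jun was the most abundant member, at 38.6 ± 18.3 CPM per kilobase in AAV-delta-mut-p53 tumours (SD, n = 6) and 17.8 ± 6.47 CPM per kilobase in AAV-Control tumours (SD, n = 3). Junb and Ier2 followed, at 26 ± 17.1 and 21 ± 11.3 CPM per kilobase in AAV-delta-mut-p53 tumours and 9.35 ± 6.82 and 15 ± 7.94 CPM per kilobase in AAV-Control tumours. Atf3 held 17.4 ± 6 CPM per kilobase in AAV-delta-mut-p53 tumours and 6.16 ± 4.83 CPM per kilobase in AAV-Control tumours. Fos, Jund, Egr1, Dusp1 and Zfp36 had means between 7.05 and 12.1 CPM per kilobase in AAV-delta-mut-p53 tumours and between 3.32 and 5.97 CPM per kilobase in AAV-Control tumours. Neighbours in this order lay within their spread of each other, apart from Fosb, which stood below all of them at 0.459 ± 0.523 and 0.137 ± 0.0479 CPM per kilobase in the same group order. The per-kilobase level of Fos was 0.124 to 0.784 of that of Jun in AAV-delta-mut-p53 tumours and 0.0767 to 0.545 of it in AAV-Control tumours, so the groups overlapped in this ratio.

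Tumours within a group differed widely. Over the 9 tumours the highest level was 21 times the lowest for Fos, 19 times for Atf3, 17 times for Egr1 and 3.25 times for Zfp36. The SD of log2 CPM over the 9 tumours was 1.43 for Fos, larger than in 85.8% of all genes tested, and 0.57 for Zfp36, larger than in 34.2%. AAV-delta-mut-p53 3 held the highest value of 5 members (Fosb, Jund, Egr1, Ier2 and Zfp36), and AAV-delta-mut-p53 1 and 6 were each above a member's own mean for 10 of 10. AAV-Control 3 held the lowest value of 5 members (Fosb, Junb, Jund, Ier2 and Zfp36). The mean deviation of the 10 members from their own means, in log2 CPM, was 0.44, 0.08, 1.05, 0.27, -0.82 and 0.95 in AAV-delta-mut-p53 1 to 6. It was -0.17, -0.68 and -1.11 in AAV-Control 1 to 3. AAV-delta-mut-p53 5 was thus the only one of its group among the low tumours, with 8 of 10 members among the 3 lowest of the 9 tumours.

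AAV-delta-mut-p53 5 shares its title number with AAV-delta-mut-p53 4. Of the 10 members, 8 were higher in number 4 than in number 5, where 49.6% of all genes tested were. The ratio of number 4 to number 5 was 7.56 for Junb, 2.95 for Jun and 2.52 for Dusp1, and 0.691 for Atf3 and 0.964 for Fosb, the 2 exceptions. Without AAV-delta-mut-p53 5 the unadjusted p was under 0.05 for 5 members, Jun, Junb, Jund, Atf3 and Dusp1, against 5.79% of all genes higher in that fit, and none passed the FDR (lowest FDR of a member = 0.336 by edgeR). The groups of Jun, Jund and Dusp1 then did not overlap, 3 of 10 members, against 6.86% of all genes tested in that fit. This fit is singled out because the members were low in that tumour, so both counts follow in part from the choice. The other fits without 1 tumour gave 1 to 3 members at an unadjusted p under 0.05 by edgeR. In those fits 0 or 1 members did not overlap.

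**Figure D3:**
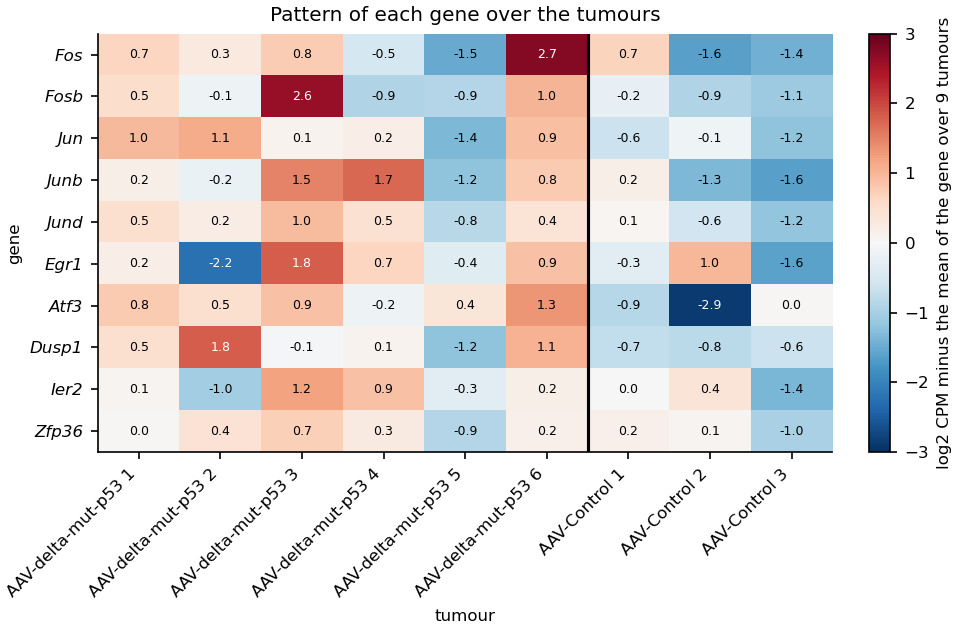
Deviation of each gene's log2 CPM from its own mean over the 9 tumours, with AAV-delta-mut-p53 tumours left of the line and AAV-Control tumours right of it. AAV-delta-mut-p53 3 and 6 are high for most genes, AAV-Control 3 and AAV-delta-mut-p53 5 are low for most, and the low Egr1 of AAV-delta-mut-p53 2 stands beside its high Dusp1.

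Members varied together in part. Across the 9 tumours, which share no library but differ in depth and tissue make-up, Pearson's r between log2 CPM of members had a median of 0.54 over 45 pairs and was positive in 41 of them. The closest pair was Egr1 and Ier2, with r = 0.93 and Spearman's rho = 0.93. Junb and Jund followed with r = 0.92 and rho = 0.88, and Jun and Dusp1 with r = 0.89 and rho = 0.92. After group means were removed these values of r were 0.93, 0.87 and 0.85, and with the 2 tumours farthest from the median of the first gene left out they were 0.85, 0.95 and 0.91. Jund and Zfp36 had r = 0.89, which was 0.63 without their 2 farthest tumours. The lowest r was between Egr1 and Dusp1, at -0.22, and it was 0.43 without AAV-delta-mut-p53 2, the tumour where Egr1 was lowest and Dusp1 highest. The part of that tumour's tissue make-up, with high muscle, adipocyte and fibroblast markers and low epithelial ones, in those values was not tested. These correlations are a description of 9 samples and carry no p.

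**Figure D4:**
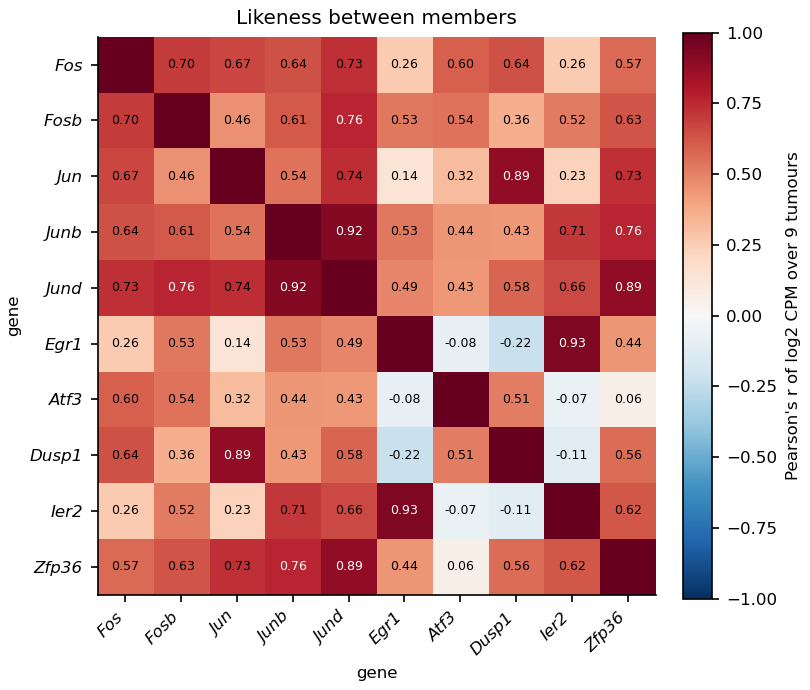
Pearson's r between the log2 CPM of each pair of genes over the 9 tumours. Egr1 with Ier2 (0.93), Junb with Jund (0.92) and Jun with Dusp1 (0.89) are among the closest pairs, and Egr1 and Ier2 have values below 0 with Atf3 and Dusp1.

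A search over 12307 other genes, each averaging 5 CPM or more, gave those whose log2 CPM was most like the mean of the members over the 9 tumours. They were Meis3, a homeobox gene (r = 0.98), Mthfsd (r = 0.97), Tgfb3, a transforming growth factor gene (r = 0.96), the thiamine transporter gene Slc19a2 (r = 0.95), Tax1bp3 (r = 0.95), the mannosidase gene Man2c1 (r = 0.95), the nucleotidase gene Cant1 (r = 0.95) and Sbno2 (r = 0.94). With 9 tumours and so many genes searched, these r values only rank the genes. Tgfb3 was 58.9 ± 37.9 CPM in AAV-delta-mut-p53 tumours (SD, n = 6) and 19.2 ± 3.84 CPM in AAV-Control tumours (SD, n = 3). For single members, the most like gene of Dusp1 was Gyg, which encodes glycogenin, the primer of glycogen synthesis (r = 0.98), and it too was highest in AAV-delta-mut-p53 2, at 78.9 CPM.

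Other immediate early genes went both ways. Of 41 tested, 27 had a higher and 14 a lower mean in AAV-delta-mut-p53 tumours. The median of their log2 fold changes was 0.29, against 0.09 over all genes. At an unadjusted p under 0.05 there were 6 higher and 0 lower, against 3.82% and 3.26% of all genes, and 0 passed the FDR of edgeR. Cebpd, a zipper factor of the acute phase, was 49.2 ± 26.5 CPM in AAV-delta-mut-p53 tumours (SD, n = 6) and 9.7 ± 2.43 CPM in AAV-Control tumours (SD, n = 3), a log2 fold change of 2.34 (SE 0.68). Fosl2, the FOS relative FRA2, was 79.9 ± 47.8 CPM in AAV-delta-mut-p53 tumours and 29.3 ± 7.17 CPM in AAV-Control tumours, and Csrnp1, a nuclear factor gene, was 13.8 ± 8.33 and 4.74 ± 2.03 CPM in the same group order. Klf4, a zinc finger factor gene, reached 108 CPM in the muscle-rich AAV-delta-mut-p53 2. Their r with the mean of the members was 0.83 for Cebpd, 0.82 for Fosl2, 0.9 for Csrnp1 and 0.51 for Klf4, and the median over the 41 was 0.36, against 0.03 over the 12307 genes searched. Egr2, a relative of Egr1, had r = -0.67, with 34.7 ± 32.6 CPM in AAV-delta-mut-p53 tumours and 74.1 ± 20.9 CPM in AAV-Control tumours. The orphan receptor genes Nr4a1, Nr4a2 and Nr4a3 had r of -0.02, -0.22 and -0.44. Egr2 and these 3 genes were picked out after their values were seen.

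Upstream kinases and factors had medians near that of all genes. Of all genes tested 55.6% were higher, and at an unadjusted p under 0.05 by edgeR 3.82% were higher and 3.26% lower. Of 23 MAPK pathway genes, 14 were higher and 9 lower (median log2 fold change 0.13). Map2k7, which encodes a kinase of JNK, was the 1 with an unadjusted p under 0.05, at 74.2 ± 42.5 CPM in AAV-delta-mut-p53 tumours and 29.1 ± 13.1 CPM in AAV-Control tumours. Of 10 genes for serum response factor, its partners and CRE-binding proteins, 3 were higher and 7 lower, with a median of -0.14 and none at an unadjusted p under 0.05 by edgeR. Genes that ERK signalling induces as feedback, such as the sprouty gene Spry4 and the ETS factor gene Etv5, were higher for 2 and lower for 11 of 13 (median -0.23), with 0 at an unadjusted p under 0.05 by edgeR. Their summed level was 2749 CPM in AAV-delta-mut-p53 3, the tumour with the highest Egr1, Ier2 and Fosb, and 389 to 966 CPM in the other AAV-delta-mut-p53 tumours, against 1093 to 1465 CPM in AAV-Control tumours. In AAV-delta-mut-p53 6, the tumour with the highest Fos and Atf3, the sum was 528 CPM, below every control.

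Downstream lists were higher in more of their members than all genes tested, of which 55.6% were higher. At an unadjusted p under 0.05 by edgeR, 3.82% of all genes were higher and 3.26% lower. The AP-1 targets were near the first of these shares. Of 17 AP-1 target genes, 14 were higher and 3 lower (median log2 fold change 1.13), and 1, the chemokine gene Cxcl2, had an unadjusted p under 0.05 (0.0496 by edgeR). Of 10 tested genes on a list of TTP targets, which also held the TTP relatives Zfp36l1 and Zfp36l2, 10 were higher, with a median of 1.49, and 2, the interleukin gene Il1b and Cxcl2, had an unadjusted p under 0.05 by edgeR. Cxcl1, Cxcl2, Il6 and Ptgs2 are on both lists. Il1b is also counted among the neutrophil markers below, and Ier3 among the other immediate early genes above. Of 17 other AP-1 zipper genes, 13 were higher and 4 lower (median 0.46), with Fosl2 and Nfe2l1 at an unadjusted p under 0.05 by edgeR. Fosl1, Fosl2 and Maff are also among the other immediate early genes. No gene of these lists passed the FDR. Markers of immune cells were higher in most lists and mixed for T cells. Of 6 mast cell markers tested, 6 were higher (median 1.5), 1 at an unadjusted p under 0.05 by edgeR. Cpa3, Cma1, Mcpt4 and Tpsb2 were highest in the muscle-rich AAV-delta-mut-p53 2, at 31.1, 24.3, 13.2 and 15.7 CPM. Their lowest levels in that group, 0 to 0.0815 CPM, lay below every control, so their higher means rested largely on that tumour. Of 7 neutrophil markers tested, 7 were higher, 2 at an unadjusted p under 0.05, and their sum was 47.8 to 211 CPM in AAV-delta-mut-p53 tumours, against 5.8 to 65.1 CPM in AAV-Control tumours. Of 9 macrophage markers, 9 were higher, with sums of 355 to 2825 CPM in AAV-delta-mut-p53 tumours and 497 to 723 CPM in AAV-Control tumours, and the 2825 CPM were in the muscle-rich AAV-delta-mut-p53 2. Of 7 B and plasma cell markers tested, 7 were higher, 4 at an unadjusted p under 0.05 by edgeR. Their sums were 166 to 889 CPM in AAV-delta-mut-p53 tumours and 94.9 to 122 CPM in AAV-Control tumours. The 889 CPM were again in AAV-delta-mut-p53 2, and the other AAV-delta-mut-p53 tumours had at most 490.3 CPM. Of 6 T cell markers tested, 4 were higher and 2, Cd4 and Cd8a, lower, with 0 at an unadjusted p under 0.05 by edgeR and a median sum of 26.9 CPM in AAV-delta-mut-p53 tumours and 29.1 CPM in AAV-Control tumours. Of 8 endothelial markers 7 were lower, 4 of them at an unadjusted p under 0.05 by edgeR, with sums of 135 to 371 CPM in AAV-delta-mut-p53 tumours and 258 to 591 CPM in AAV-Control tumours. The part of these cell types in the levels of the immediate early genes was not tested.

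Heat shock genes, which also respond to handling, were near evenly divided. Of 15, 6 were higher and 9 lower (median log2 fold change -0.04), with 0 at an unadjusted p under 0.05 by edgeR. Their sum was 3055 to 7058 CPM in AAV-delta-mut-p53 tumours and 4511 to 6573 CPM in AAV-Control tumours. Of 14 transcripts read for RNA quality, among them Malat1 and mitochondrial genes, 8 were higher and 6 lower (median 0.03), and 0 had an unadjusted p under 0.05 by edgeR. Their sum ran from 60042 to 121674 CPM in AAV-delta-mut-p53 tumours (median 99718 CPM) and was 112082, 118738 and 119939.6 CPM in AAV-Control 1, 2 and 3. It was lowest in AAV-delta-mut-p53 6, at 60042 CPM, and next lowest in AAV-delta-mut-p53 3, at 81764 CPM, the 2 tumours where the members were highest on average. The sum was mostly Rn7sk and mt-Rnr2. Rn7sk averaged 39417 CPM in AAV-delta-mut-p53 tumours and 60344 CPM in AAV-Control tumours (FDR = 0.758 by edgeR), and mt-Rnr2 26861 and 26283 CPM in the same group order. The difference in the sum between groups thus lay mainly in Rn7sk and is not a measure of RNA integrity. The part of RNA quality in the levels of the members was not tested. Because neither handling time nor RNA integrity is labelled, a part of handling in the differences between tumours was not tested.

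**Figure D5:**
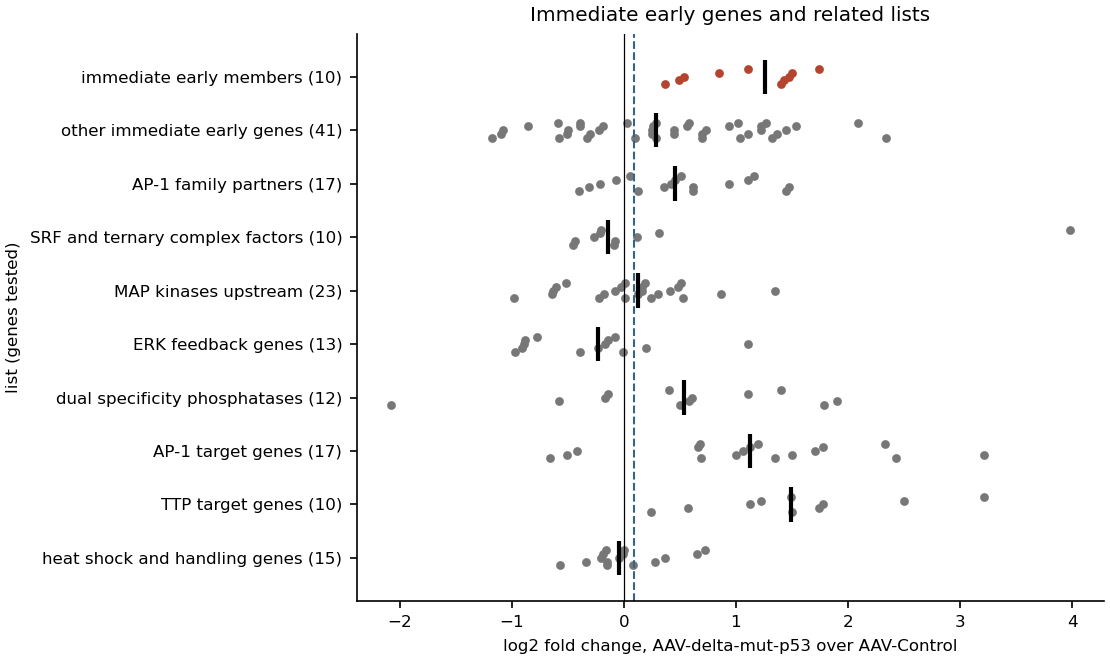
Log2 fold change (AAV-delta-mut-p53 over AAV-Control) of every tested gene in the immediate early list and in 9 related lists, with the number tested in brackets, a bar at each median and a dashed line at the median of all genes tested. The median is 1.26 for the 10 members, 1.49 for TTP targets and 1.13 for AP-1 targets, and -0.04 for heat shock genes.

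Genes around the members were read for regional shifts, taking tested protein-coding genes that start within 1 Mb of a member and average 1 CPM or more. Around Fos, 23 of 25 neighbours were higher, the largest share of any member, with a median log2 fold change of 0.38. Tgfb3, named above for its likeness to the members, lies within 1 Mb of Fos. Around Junb, Jund and Ier2, which share chromosome 8, 39 of 48, 61 of 74 and 43 of 52 neighbours were higher, with median log2 fold changes of 0.33, 0.48 and 0.39. Junb, at 1.47, lay above all but 2 of its neighbours, while Ier2, at 0.49, lay below 22 of its 52. The windows of Junb and Ier2 overlap. Around Dusp1 28 of 43 were higher (median 0.09). Fewer were higher around Fosb, 19 of 48 (median -0.11), Zfp36, 26 of 62 (median -0.13), and Egr1, 6 of 31 (median -0.29). Around Jun 2 of 8 neighbours were higher (median -0.39), and around Atf3 10 of 17 (median 0.08), and no neighbour of either had a larger log2 fold change than the member. Whether the copy number of any of these regions differed was not measured.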

How the data were processed

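Flash-frozen tumour tissue was homogenised in TRIzol and made into strand-specific total RNA libraries, per the labels' protocols. The authors deposited raw counts per Ensembl gene, 1 column per tumour. STAR 2.6.0b, DESeq2 and GRCm38 are named in the submitters' processing notes, while neither the counter nor its strand setting nor the annotation release is stated there. Reads of overlapping or antisense genes may therefore be shared. Each column was matched to its sample by title, and 0 columns were left over. Symbols were found for 49326 of 49585 identifiers. Positions and exonic lengths (all annotated exons merged) came from GENCODE release M21 (GRCm38). The counts may rest on another release. The RefSeq start equals the outer bound of the GENCODE gene for Fos and Jun and differs from it for Atf3, Dusp1, Fosb, Junb, Jund and Zfp36.

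Genes kept by filterByExpr (minimum count 10) were scaled by TMM and tested with edgeR 4.0.16 in R 4.3.3 (2-sided quasi-likelihood test, no covariate, Benjamini-Hochberg over 19606 genes). Log2 CPM used a prior count of 2. SE and intervals come from the same fit. The fits were tested on simulated data. No pair of libraries agreed within sampling noise. The named genes were the members, the genes of each list with the smallest p and a mean of at least 1 CPM (4 for other immediate early genes, 2 for each other list) and the most like genes. Only part of them is given. The members and lists were chosen with earlier results of these data known. Alternatives were other scaling, DESeq2 1.42.0, limma 3.58.1 voom with quality weights, edgeR's robust fit, no filter or a stricter one, the same-numbered pair of tumours summed, 1 surrogate variable from sva 3.50.0, and each tumour left out.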

Additional observations from a re-analysis of the deposited data

Results flagged for a closer look

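In 1 of 47 named genes, 1 of the 6 AAV-delta-mut-p53 tumours stood far from the other 5. Cebpd was 5.62 CPM in AAV-delta-mut-p53 5 and 42.6 to 82.7 CPM in the other 5, against 9.7 ± 2.43 CPM in AAV-Control tumours (SD, n = 3). The gap in log2 CPM made up 0.753 of the range of the group, above the critical value of 0.625 for 6 samples. Chance alone gives such a gap in about 5% of groups, so 1 among 47 is not more than chance gives. The same tumour was low for 8 of the 10 immediate early genes.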

How the results depend on the processing

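The log2 fold change of each member stayed above 0 under every alternative that could be fitted, and no member passed an FDR of 0.05 in any of them. Fosb was not tested at a minimum count of 50. Members at an unadjusted p under 0.05 numbered 2 with all tumours (7.07% of all genes in either direction, 3.82% higher). DESeq2 gave 5, Fosb, Jun, Junb, Atf3 and Dusp1 (9.8% in either direction, 6.42% higher). Limma voom with quality weights gave 1, Atf3 (10.4% and 4.15%), a share like that of all genes in either direction. Each of these members was higher. Members at this p numbered 4 with no filter (6.89% in either direction) and 4 with the same-numbered pair summed (8.72%). They were Jun, Junb, Atf3 and Dusp1 in both. Without 1 tumour the number was 1 to 5 (4.24% to 10.3% in either direction). Dusp1 was above 0.05 without AAV-delta-mut-p53 2 or 6 or any 1 control, and Atf3 without AAV-Control 1 (0.0696). Members whose groups did not overlap numbered 0 with all tumours (3.06% of all genes), 2 with the pair summed (5.56%; Atf3 and Dusp1), and 0 to 3 without 1 tumour (3.67% to 7.64%). Smaller groups separate more easily. DESeq2 called 104 genes and edgeR 0, and none of the 104 was a member. On the simulated data DESeq2 called 71 of 18972 unchanged genes and edgeR 3. Of 48 genes simulated with a log2 change of 1, edgeR recovered 0 and DESeq2 1. Of 48 genes simulated with a log2 change of 2, edgeR recovered 7 and DESeq2 26. The log2 fold changes of the members with all tumours were 0.37 to 1.74 by edgeR. Fewer samples entered the summed-pair fit and those without 1 tumour, and the cause of the other shifts was not tested. Limma voom gave the lowest values for Fos (0.45), Fosb (0.86), Jun (0.84), Junb (0.93), Jund (0.53) and Dusp1 (0.89). No paired analysis was possible because the labels give no replicate numbers that tie tumours of the groups together. Depth left Fosb with 13 to 190 reads per tumour, so its counting error is the largest among the members.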

Other observations

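Among the dual specificity phosphatases, the family of Dusp1, single genes went opposite ways. Dusp9, which acts on ERK, was 3.09 ± 1.87 CPM in AAV-delta-mut-p53 tumours (SD, n = 6) and 13.1 ± 7.56 CPM in AAV-Control tumours (SD, n = 3), a log2 fold change of -2.08 (SE 0.65, unadjusted p = 0.00904, FDR = 0.677 by edgeR). Dusp8, which acts on JNK and p38, was 12 ± 9.73 CPM in AAV-delta-mut-p53 tumours and 3.47 ± 0.816 CPM in AAV-Control tumours, a log2 fold change of 1.79 (SE 0.73, FDR = 0.677 by edgeR). Of 12 phosphatases tested, Dusp1 among them, 8 were higher and 4 lower. At an unadjusted p under 0.05 by edgeR there were 2 higher, Dusp8 and Dusp1 itself, and 1 lower, Dusp9. Over all genes tested 55.6% were higher, and at that p 3.82% were higher and 3.26% lower. Mapk8, which encodes JNK1, had 63.4 ± 17.1 CPM in AAV-delta-mut-p53 tumours and 96.8 ± 23.8 CPM in AAV-Control tumours, and 0 of the 6 lay above the control median.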
